A study of Mus musculus with 12 samples.

Results

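When MyoD went from the 1x to the 2x virus dose, its own transcript was 2.00 times higher, and 16 of the 23 genes of the thick and thin muscle filaments that could be compared were higher by more than that, from 2.74 to 5.62 times. The subunits of the fetal acetylcholine receptor other than alpha, the cadherin Cdh15 and the regulators Mef2a and Mycl were higher by less than Myod1. The collagens Col1a1, Col3a1 and Col6a2 and the growth factor receptors Pdgfra and Pdgfrb were lower, each by less than the inverse of the Myod1 ratio. These statements rest on 1 library at each dose. A second 1x MyoD library, made with another virus batch, held many contractile transcripts near or above their 2x level. For those genes the size of the dose difference, and for some its direction, thus depends on which 1x library is used. The median log2 ratio of the filament genes was 1.8 against the first 1x library and -0.05 against the second-batch one.

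Of the 12 samples of the study, 3 were compared here: fibroblasts given MyoD lentivirus at 2x, the same cells given it at 1x, and cells given a GFP lentivirus at 1x as the baseline level. All were mouse embryonic fibroblasts of the genotype labelled MyoD-/-; Myf5-/-, so the introduced factor is set against cells null for both muscle-determining genes. Cells were infected in medium with polybrene at 8 µg/ml, moved to differentiation medium after 24 h and harvested 20 h later, and poly(A) RNA was sequenced. The promoter that drives the virus, the infected share of the cells and the multiplicity of infection (MOI, virus particles per cell) that corresponds to 1x are not given in the sources used here. No GFP library at 2x was analysed, so the added virus and the added MyoD cannot be told apart within these samples. Libraries of Myf5 virus at 1x and 2x and of GFP virus at an MOI of 15, 30, 60 and 120 were used beside them. They served to show what more of another virus did to the same genes and to choose sets of genes.

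MyoD is a basic helix-loop-helix transcription factor that pairs with widely expressed E proteins and binds the letters CANNTG, called an E-box. Introduced into fibroblasts, it switches on muscle genes in stages: it activates regulators such as Myog and the Mef2 factors, these act with it on later genes, and the cells leave the cell cycle, fuse and build sarcomeres, the repeating units of thick and thin filaments that contract.

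The 3 libraries held 80.6 M (1x MyoD), 76.8 M (2x MyoD) and 81.5 M (1x GFP) counts, where M stands for mega, and the second-batch 1x MyoD library held 23.7 M. Levels are in CPM, a gene's count divided by its library total and scaled to 1 M. Each ratio of 2x over 1x MyoD carries a 95% interval in parentheses that covers counting error only. With 1 library a dose there is no check by replicates and no p-value, and nothing in the labels says that a dose was repeated in a second culture. Fibroblast genes were abundant (Col1a1 at 3092 CPM and Vim at 4933 CPM in 1x GFP). Of 8 epithelial marker genes none reached 50 counts over the 2 MyoD libraries. Of 8 endothelial markers, Tie1 and Emcn had no count in 1x GFP, 1x MyoD or 2x MyoD, Tek (ratio 2.41, 1.40 to 4.31) and Vwf (1.37, 1.23 to 1.53) reached 50 counts, and the summed level was 5.78, 7.83 and 10.9 CPM. Of 10 macrophage markers, Adgre1 had no count, 5 reached 50 counts with Itgam higher in 2x (2.24, 1.63 to 3.12), and the summed level was 29.9, 27.0 and 26.7 CPM. The part of such cells in the results was not tested. In bulk RNA, more cells with a given transcript and more of it per cell cannot be told apart.

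Myod1, the introduced gene (ENSMUSG00000009471.3), stood at 5.62 CPM in 1x GFP, 309 CPM with 1x MyoD and 617 CPM with 2x MyoD. The 2x level was 2.00 times the 1x level (1.97 to 2.03). The count adds the viral transcript to anything the null locus still makes, and these cannot be told apart. Myf5, the related factor whose gene is also null, stood at 17.2, 15.0 and 11.9 CPM, a ratio of 0.79 (0.73 to 0.87).

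Every gene with at least 50 counts in the 2 MyoD libraries together was then set against the interval of Myod1. Of 14873 such genes, 733 (4.93%) were at least 1.5-fold higher in 2x with an interval above 1, and 718 (4.83%) were at least 1.5-fold lower with an interval below 1. Among the higher genes, 196 (1.32% of those compared) had an interval wholly above that of Myod1, 358 (2.41%, Myod1 itself among them) overlapped it and 179 (1.2%) lay wholly below it. Among the lower genes, 15 (0.101%) were lower by more than the reciprocal of the Myod1 ratio, 453 (3.05%) overlapped the reciprocal and 250 (1.68%) were lower by less. The other 13422 genes are described as within 1.5-fold, including those past that fold whose interval held 1. The overlapping class holds many low-count genes with wide intervals. The median ratio over all compared genes was 0.98, a log2 value of -0.03.

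**Figure D1:**
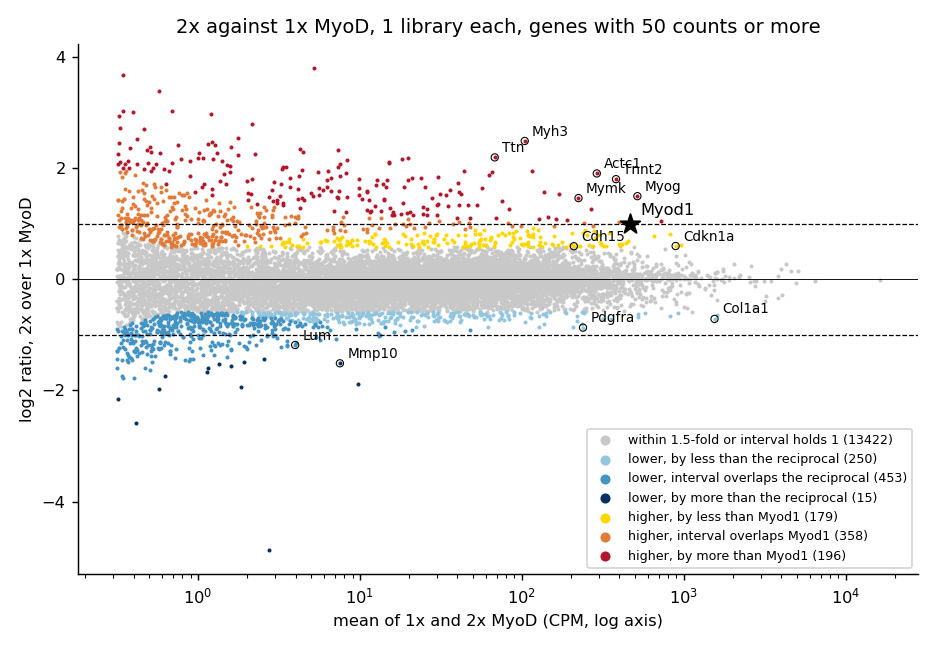
Ratio of 2x over 1x MyoD on a log2 scale against the mean CPM of the 2 libraries (log axis). Each point is 1 of the 14873 genes with 50 counts or more, except 1 gene with no count in 2x that has no log value; dashed lines mark the Myod1 ratio and its reciprocal. Myh3, Ttn, Actc1, Tnnt2, Myog and Mymk lie above Myod1, while Cdh15 and Cdkn1a lie between Myod1 and no difference.

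The 196 genes above Myod1 were concentrated among genes that the fibroblasts hardly expressed. Of 238 genes at up to 0.1 CPM in 1x GFP, 92 (38.7%) were higher by more than Myod1, against 4.47% of the 1542 genes from 0.1 to 1 CPM, 0.782% of the 3451 genes from 1 to 10 CPM, 0.108% of the 7385 genes from 10 to 100 CPM and 0 of the 2257 genes over 100 CPM. A silent gene can reach 50 counts through the 2x library alone, which favours high ratios. Among genes with 50 counts in the 1x MyoD library by itself, 49 of 101 (48.5%) in the lowest range were higher by more than Myod1, and 141 (1.01%) of 13892 over all ranges.

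The second-batch 1x MyoD library had a Myod1 level of 338 CPM, close to the first 1x library, and its values bear on every muscle list that follows. Of the 196 genes above Myod1, that library stood below the first 1x library in 17, between the first 1x and the 2x library in 125 and above 2x in 54. Against it, 1174 genes (8.19% of 14326) were at least 1.5-fold higher in 2x, 1645 (11.5%) were lower, and 296 (2.07%) were above the Myod1 ratio of that pair. Its table was made separately, and virus batch, table and culture cannot be told apart in the difference.

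Among the myogenic regulators, Myog, Rbm24 and Mybph were higher by more than Myod1. Myog (ENSMUSG00000026459.4), the factor that carries differentiation forward after MyoD, stood at 0.503 CPM in 1x GFP, 270.3 CPM with 1x MyoD and 763 CPM with 2x MyoD. Its ratio of 2.82 (2.78 to 2.87) lay above that of Myod1. The second-batch 1x library held 736 CPM of Myog, close to its level in 2x. Rbm24, an RNA-binding protein that promotes muscle splicing, followed the same order at 0.0491, 16.1 and 46.7 CPM, a ratio of 2.90 (2.72 to 3.09), with 54.7 CPM in the second-batch 1x library. Mybph, a myosin-binding protein, had no count in 1x GFP and stood at 10.6 and 37.3 CPM, a ratio of 3.54 (3.27 to 3.82).

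The other regulators followed the dose less than Myod1 did. Mef2a, a MADS-box factor that acts with MyoD on muscle promoters, stood at 72.5 CPM in 1x GFP, 250.1 CPM with 1x MyoD and 445 CPM with 2x MyoD, a ratio of 1.78 (1.75 to 1.81). Mycl, a Myc-family factor, went from 1.14 CPM in 1x GFP to 107 and 170.1 CPM, a ratio of 1.58 (1.54 to 1.63). Hes6, a helix-loop-helix protein that promotes differentiation, was at 35.4, 73.5 and 122 CPM with a ratio of 1.67 (1.61 to 1.72). All 3 genes were higher at each step of the dose. Six4, a homeobox factor of muscle progenitors, had a ratio of 1.34 (1.29 to 1.39), and Eya1, a transcriptional coactivator, 0.91 (0.87 to 0.94). Of 20 regulators written in the list, 17 reached 50 counts. Of these 3 were above Myod1, beside 1.32% of all genes, 1 overlapped it, 4 were higher by less and 9 were within 1.5-fold. The median log2 ratio of the list was 0.55.

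Most of MyoD's partners and inhibitors were within 1.5-fold, as were most of all genes. The E proteins Tcf3, Tcf4 and Tcf12, with which MyoD pairs, had ratios of 0.94, 0.84 and 1.19. Id1, Id2 and Id3, which sequester E proteins, had ratios of 1.19, 1.45 and 1.16. None of these partners or inhibitors reached 1.5-fold. Twist2, an inhibitor of MyoD in mesenchymal cells, stood at 190.1, 100.7 and 64.2 CPM and was lower in 2x with a ratio of 0.64 (0.62 to 0.66). Snai1, a zinc finger repressor that competes for E-boxes, was at 23.0, 28.1 and 45.7 CPM, a ratio of 1.63 (1.54 to 1.71), while the second-batch 1x library stood above 2x at 58.3 CPM. Of the 18 members compared, 15 were within 1.5-fold, as were 13422 of all 14873 genes. At least 1.5-fold higher were 2 and lower was 1, beside 4.93% and 4.83% of all genes.

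Of the Notch pathway, which holds muscle progenitors undifferentiated, 9 genes were compared. At least 1.5-fold higher were 3, beside 4.93% of all genes, and 6 were within 1.5-fold, as most genes were. The ligand Dll1 stood at 1.14, 30.9 and 58.0 CPM in 1x GFP, 1x MyoD and 2x MyoD, a ratio of 1.88 (1.79 to 1.98) that overlapped Myod1, while the second-batch 1x library stood above 2x at 72.5 CPM. Jag2, another ligand, was at 0.172, 0.732 and 1.74 CPM, a ratio of 2.38 (1.74 to 3.29), with 1.37 CPM in the second-batch 1x library. The ligand Jag1 was within 1.5-fold at 1.29 (1.09 to 1.54). The receptors Notch1, Notch2 and Notch3 had ratios of 1.46, 1.03 and 1.10. Of the Notch target genes, Hey1 had a ratio of 2.07 (1.59 to 2.72) at 2.21 CPM in 2x, and Hes1 one of 1.20 (1.09 to 1.32). The second-batch 1x library held 0.397 CPM of Hey1, below the first 1x library at 1.07 CPM.

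Promoter sequences of Myog and of the acetylcholine receptor subunits Chrna1 and Chrng show the E-boxes in genes that lay above and below the Myod1 ratio. Each is the stretch of 250 bases before the RefSeq transcription start in build GRCm38.p6, 5′ to 3′ on the gene's strand, with every CANNTG in capitals. The count tables use another build, mm9, so these positions belong to the sequences only. The windows are chr1:134289754-134290003 on the plus strand (Myog), chr2:73580339-73580588 on the minus strand (Chrna1) and chr1:87205561-87205810 on the plus strand (Chrng).
Myog: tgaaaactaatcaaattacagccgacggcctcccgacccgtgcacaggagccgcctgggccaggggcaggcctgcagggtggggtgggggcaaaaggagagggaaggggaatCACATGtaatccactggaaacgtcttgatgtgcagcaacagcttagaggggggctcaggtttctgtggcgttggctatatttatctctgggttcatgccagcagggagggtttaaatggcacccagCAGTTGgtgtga
Chrna1: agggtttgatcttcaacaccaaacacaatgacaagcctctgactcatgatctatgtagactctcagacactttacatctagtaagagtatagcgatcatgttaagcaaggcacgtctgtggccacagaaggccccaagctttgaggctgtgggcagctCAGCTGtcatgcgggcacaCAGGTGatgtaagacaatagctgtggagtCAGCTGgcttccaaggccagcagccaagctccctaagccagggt
Chrng: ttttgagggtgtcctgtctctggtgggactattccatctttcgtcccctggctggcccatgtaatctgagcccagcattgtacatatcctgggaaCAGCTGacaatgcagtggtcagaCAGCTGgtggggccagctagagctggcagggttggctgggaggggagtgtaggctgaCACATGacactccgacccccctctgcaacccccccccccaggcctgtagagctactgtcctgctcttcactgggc
Myog has CACATG and CAGTTG beginning 138 and 12 bases before the start. Chrna1 has CAGCTG at 92 and 44 bases and CAGGTG at 73 bases before it, and Chrng has CAGCTG at 155 and 132 bases and CACATG at 75 bases. The gene with the higher dose ratio and the gene with the lower one thus both hold 2 copies of CAGCTG, a form of the E-box that MyoD is known to bind.

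Over whole classes, windows from 250 bases before to 50 after the first listed start were searched on both strands. CAGCTG, which reads the same on both strands, occurred in 36.8% of the 133 matched genes above Myod1, 26.6% of the 214 that overlapped it, 23.0% of the 126 that were higher by less and 14.5% of the 9523 within 1.5-fold. It occurred in 16.1% of all 27025 windows. CAGGTG or its complement CACCTG occurred in 27.8%, 31.8%, 23.0%, 16.2% and 20.0% in the same order. Among genes at up to 1 CPM in 1x GFP, CAGCTG was in 37.0% of 108 genes above Myod1 and 19.2% of 527 within 1.5-fold. A match describes the letters and is no sign of binding, and CANNTG as such was in 72.2% of all windows.

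The acetylcholine receptor, the channel that receives the motor nerve's signal, was split by subunit. Chrng, the fetal gamma subunit, stood at 1.96 CPM in 1x GFP, 220.2 CPM with 1x MyoD and 381 CPM with 2x MyoD, a ratio of 1.73 (1.70 to 1.76). Chrnd (delta) stood at 0.405, 84.4 and 149 CPM, a ratio of 1.76 (1.71 to 1.82), and Chrnb1 (beta) at 4.71, 48.4 and 78.8 CPM, a ratio of 1.63 (1.56 to 1.69). These 3 subunits were all higher in 2x, each by less than Myod1.

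Chrna1, the alpha subunit that binds acetylcholine, stood apart at 2.12, 4.78 and 15.0 CPM with a ratio of 3.14 (2.80 to 3.54). Its estimated counts are not whole, so some of its reads were shared between features, and the second-batch 1x library held 16.7 CPM, above 2x. Around the receptor, Dok7, which activates the synapse-forming kinase MuSK, was at 0.0736, 14.2 and 34.8 CPM with a ratio of 2.46 (2.29 to 2.64). Rapsn, which clusters the receptor, had a ratio of 1.30 (1.24 to 1.37) and Lrp4, the agrin receptor, 1.44 (1.39 to 1.49), while the nerve-side signal Agrn was level at 0.97 (0.93 to 1.02). In the second-batch 1x library Chrng, Chrnd and Chrnb1 stood at 204, 90.6 and 59.9 CPM, near their first 1x levels, and Dok7 at 35.4 CPM, near its 2x level.

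Fusion of myoblasts into fibres needs the membrane proteins Mymk and Mymx, and both lay above Myod1. Mymk stood at 0.110 CPM in 1x GFP, 119 CPM with 1x MyoD and 328 CPM with 2x MyoD, a ratio of 2.76 (2.69 to 2.82). Mymx stood at 0.307, 21.6 and 62.3 CPM, a ratio of 2.89 (2.73 to 3.05). The second-batch 1x library lay between the doses for both, at 230.5 CPM for Mymk and 52.0 CPM for Mymx. Adhesion genes differed from them. Cdh15, the muscle cadherin, stood at 0.245, 167 and 252 CPM, a ratio of 1.51 (1.48 to 1.55), and 152 CPM in the second-batch 1x library. The integrin Itga7 had a ratio of 1.40 (1.35 to 1.45), and the guidance receptor Cdon 0.92 (0.88 to 0.96). Of 18 members compared, 6 were at least 1.5-fold higher, beside 4.93% of all genes, and none was lower. The other 12 were within 1.5-fold, as were 13422 of all 14873 genes.

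The thick and thin filaments showed the highest dose ratios as a group. Of 31 genes written, 23 reached 50 counts: 16 were above Myod1, beside 1.32% of all genes, 3 overlapped it and 2 were higher by less. Tpm1 and Tpm3, tropomyosins that fibroblasts already express, were within 1.5-fold. The median log2 ratio was 1.8, against -0.03 over all genes. It was 1.81 over the 22 members with 50 counts in the 1x MyoD library alone, of which 16 were above Myod1. Against the second-batch 1x library the same list had a median log2 ratio of -0.05, and of the 21 members higher in 2x over the first 1x, the second-batch 1x level was below the first 1x in 2, between in 8 and above 2x in 11.

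Actc1, the actin of embryonic muscle and heart, stood at 0.331 CPM in 1x GFP, 122 CPM with 1x MyoD and 458 CPM with 2x MyoD, a ratio of 3.75 (3.67 to 3.83). The second-batch 1x library held 645 CPM of Actc1, more than 2x. Acta1, the adult skeletal actin, stood at 0.172, 27.2 and 104 CPM with a ratio of 3.83 (3.65 to 4.02), and here the second-batch 1x level of 42.9 CPM lay nearer the first 1x. Actin genes are near-identical in parts, so reads can be shared between them.

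Myh3, the embryonic myosin heavy chain, had the highest ratio of the list, though its estimated counts are not whole. It stood at 0.209 CPM in 1x GFP, 31.4 CPM with 1x MyoD and 177 CPM with 2x MyoD, a ratio of 5.62 (5.39 to 5.87), with 136 CPM in the second-batch 1x library. Of the adult heavy chains, Myh1 had no count in 1x GFP and stood at 0.41 and 1.17 CPM with 1x and 2x MyoD. Its ratio of 2.86 (1.90 to 4.40) overlapped Myod1. The adult chains Myh2 and Myh4 and the slow chain Myh7 stayed under 50 counts. Ttn, the giant spring protein titin, stood at 0.540, 24.4 and 112 CPM, a ratio of 4.58 (4.36 to 4.81), with 73.4 CPM in the second-batch 1x library. For Myh3 and Ttn the second-batch 1x level lay between the doses and nearer to 2x.

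Troponins switch the thin filament on when calcium arrives. Tnnt2, the embryonic and cardiac troponin T, stood at 0.846, 169.8 and 593 CPM, a ratio of 3.49 (3.42 to 3.56), and 816 CPM in the second-batch 1x library. Tnni1, the slow troponin I, stood at 0.147, 17.9 and 69.6 CPM, a ratio of 3.88 (3.66 to 4.12), and 208 CPM in the second-batch 1x library. Both thus stood above 2x in the other 1x library. Tnnt1, the slow troponin T, had a lower ratio of 1.78 (1.67 to 1.90), while Mylpf, the fast regulatory light chain, had 3.85 (3.71 to 3.99) and Tpm2, the muscle beta tropomyosin, 2.03 (2.00 to 2.06), next to Myod1. The second-batch 1x library stood above 2x for Tnnt1 and Tpm2 as well, at 60.9 and 681 CPM.

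**Figure D2:**
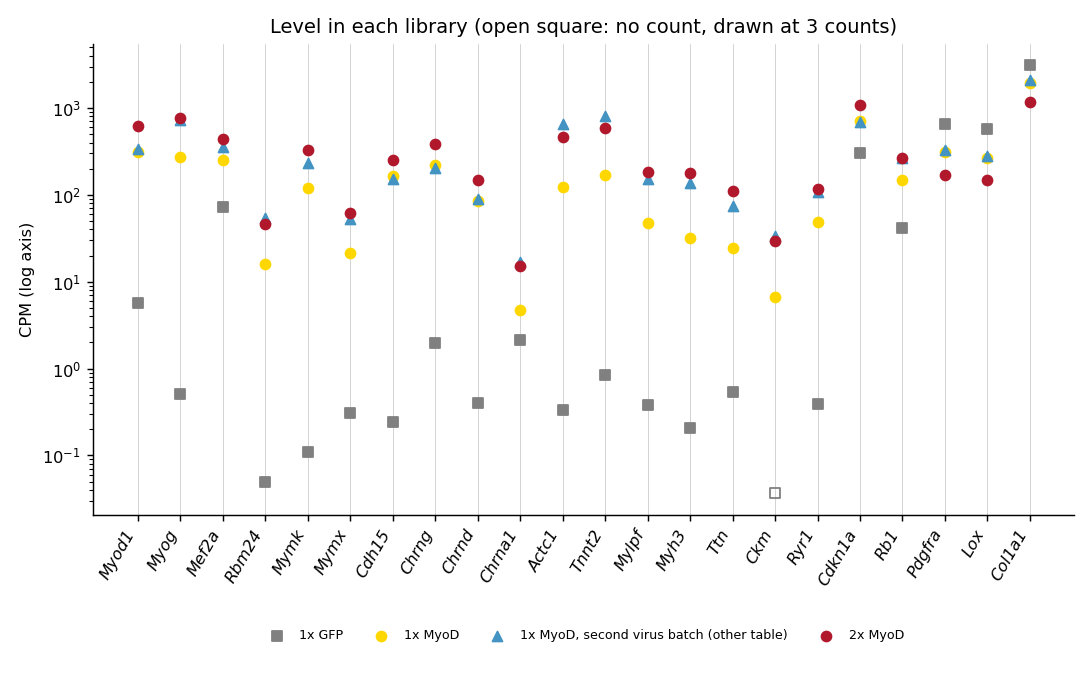
CPM (log axis) of 22 genes in 1x GFP, 1x MyoD, second-batch 1x MyoD (from the other table) and 2x MyoD, 1 library each; the open square marks Ckm, with no count in 1x GFP, at the level of 3 counts. Second-batch triangles sit at or above the 2x circle for Actc1, Tnnt2, Ckm and Chrna1 and near the first 1x circle for Chrng, Chrnd and Cdh15.

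Z-disc proteins, which anchor the thin filaments, and the factors that assemble sarcomeres also lay mostly above Myod1. Of 30 written, 23 were compared, with a median log2 ratio of 1.46. Above Myod1 were 14, beside 1.32% of all genes, 5 overlapped it and 4 were within 1.5-fold. Of the 19 with 50 counts in the 1x MyoD library alone, 13 were above Myod1, beside 1.01% of all genes so chosen. Unc45b, the myosin chaperone, stood at 0.196, 26.6 and 98.5 CPM, a ratio of 3.70 (3.52 to 3.88). Des, the muscle intermediate filament desmin, was at 1.28, 17.9 and 54.6 CPM, a ratio of 3.05 (2.87 to 3.24). The ubiquitin ligase Fbxo32, linked to muscle wasting, was at 1.13 (1.08 to 1.17). Of 19 members higher in 2x, the second-batch 1x level was below the first 1x in 2, between in 9 and above 2x in 8.

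Excitation-contraction coupling turns the membrane signal into calcium release. Of 21 written genes 17 were compared, with a median log2 ratio of 1.13. Above Myod1 were 8, beside 1.32% of all genes, 5 overlapped it and 4 were within 1.5-fold. Of the 15 with 50 counts in the 1x MyoD library alone, 6 were above Myod1, beside 1.01% of all genes so chosen. Ryr1, the calcium release channel, stood at 0.393, 48.8 and 118 CPM, a ratio of 2.42 (2.33 to 2.51), with 107 CPM in the second-batch 1x library. Casq2, a calcium-binding protein of the store, was at 0.429, 1.51 and 7.41 CPM, a ratio of 4.89 (4.02 to 6.0), and Cacna1s, the voltage sensor, at 0.0245, 0.521 and 2.29 CPM, a ratio of 4.40 (3.13 to 6.31). These 3 genes of voltage sensing, release and storage lay above Myod1. The second-batch 1x library, however, held 8.42 CPM of Casq2, more than 2x, and 1.15 CPM of Cacna1s, between the doses. Cacna1s had 42 counts in 1x MyoD and reached 50 only with 2x MyoD added. Stac3, which couples the sensor to the channel, was at 1.82, 67.1 and 130.2 CPM with 1.94 (1.88 to 2.00), and Tmem38a, a potassium channel of the store, at 1.99 (1.88 to 2.10), both next to Myod1. The calcium pump Atp2a2, which fibroblasts also express, was at 1.15 (1.13 to 1.17), and its fast muscle relative Atp2a1 at 2.27 (2.12 to 2.44).

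Of the dystrophin complex, which ties the cytoskeleton to the matrix, 10 genes were compared. At least 1.5-fold higher were 4, beside 4.93% of all genes, and 6 were within 1.5-fold. None was above Myod1, but with 1.32% of all genes in that class, 10 genes are too few to read this. Sgca, alpha sarcoglycan, stood at 0.0859, 17.7 and 35.7 CPM with a ratio of 2.01 (1.88 to 2.14). Dag1, dystroglycan, was at 1.45 (1.44 to 1.47) and Dmd, dystrophin, at 0.99 (0.84 to 1.16). For muscle energy supply, 6 of 17 genes compared were above Myod1, beside 1.32% of all genes, and 11 were within 1.5-fold. Ckm, muscle creatine kinase, had no count in 1x GFP and stood at 6.61 and 29.7 CPM, a ratio of 4.48 (4.08 to 4.94), with 33.4 CPM in the second-batch 1x library. Pygm, muscle glycogen phosphorylase, was at 3.83 (3.25 to 4.53) and Mb, myoglobin, at 3.95 (3.18 to 4.94), while other muscle forms, the enolase Eno3 and the phosphofructokinase Pfkm, were at 1.40 and 1.11. Aldoa, an aldolase, and Ak1, an adenylate kinase, were at 1.35 and 1.05.

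**Figure D3:**
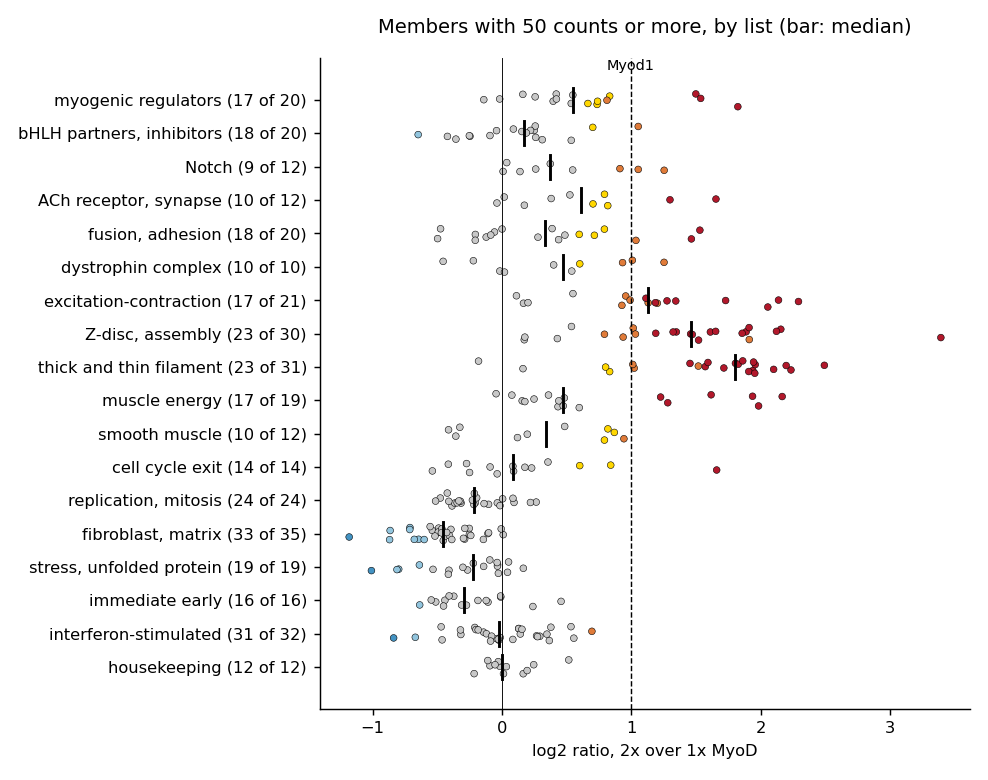
Log2 ratio of 2x over 1x MyoD for every list member with 50 counts or more, by list, with the number compared of the number written; points are coloured by class (red above Myod1, orange overlapping, yellow higher by less, grey within 1.5-fold, blue lower), black bars are medians and the dashed line is Myod1. The filament, Z-disc and excitation-contraction medians lie to the right of Myod1 at 1.8, 1.46 and 1.13, and the matrix median lies at -0.45.

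Cell cycle exit precedes fusion, and its genes were mixed. Cdkn1c, a cyclin kinase inhibitor, stood at 0.540, 6.97 and 22 CPM, a ratio of 3.16 (2.87 to 3.48), with 43.9 CPM in the second-batch 1x library. Cdkn1a, the inhibitor p21 that MyoD is known to induce, stood at 303, 707 and 1072 CPM, a ratio of 1.52 (1.5 to 1.53). Rb1, the retinoblastoma protein needed for stable exit, stood at 41.2, 146 and 262 CPM, a ratio of 1.79 (1.75 to 1.83), but at 265 CPM in the second-batch 1x library, level with 2x. Both of the last genes were thus higher by less than Myod1. Of the 14 members, 3 were at least 1.5-fold higher, beside 4.93% of all genes, and 11 were within 1.5-fold. All 24 replication and mitosis genes were also within 1.5-fold, as were 13422 of all 14873 genes, so this count does not set the list apart. The median log2 ratio of the 24 genes was -0.22, beside -0.03 over all genes, and turned to 0.46 against the second-batch 1x library. Top2a, the topoisomerase of dividing cells, stood at 123, 109 and 78.1 CPM (0.72, 0.69 to 0.74) and Mki67 at 112, 96.4 and 71.9 CPM (0.75, 0.72 to 0.77), with 59.1 and 57.7 CPM in the second-batch 1x library, below 2x.

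Of the fibroblast matrix list, 33 of 35 genes were compared. At least 1.5-fold lower were 8 of them, beside 4.83% of all genes, and none was higher, beside 4.93%, with a median log2 ratio of -0.45. Pdgfra, a growth factor receptor of mesenchymal cells, stood at 656 CPM in 1x GFP, 308 CPM with 1x MyoD and 169 CPM with 2x MyoD, a ratio of 0.55 (0.54 to 0.56). Lox, which crosslinks collagen, was at 572, 267 and 147 CPM, a ratio of 0.55 (0.54 to 0.56), and Col1a1, the main fibrillar collagen, at 3092, 1922 and 1173 CPM, a ratio of 0.61 (0.61 to 0.62). All 3 genes stepped down at each dose, and their second-batch 1x levels of 332, 280 and 2072 CPM lay close to the first 1x library.

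Of 9 collagens compared, 3 were lower and 6 were within 1.5-fold, among them Col1a2 at 0.82 and Col6a1 at 0.71. Lum, a collagen-binding proteoglycan, had the lowest ratio at 0.44 (0.37 to 0.52), from 11.6, 5.52 and 2.43 CPM. Sparc, a matrix glycoprotein, and Thbs1, thrombospondin, were level at 1.01 (0.99 to 1.02) and 1.00 (0.98 to 1.01). Against the second-batch 1x library the median of the list was -0.64.

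The 15 genes lower by more than the reciprocal of Myod1 were mostly at low levels, and the class depended on scaling and on the 1x library. It held 13 of them with TMM scaling, and 10 with DESeq2 scaling, where Slc14a1 overlapped the reciprocal. Against the second-batch 1x library 9 could be compared, of which 6 were lower and 2 stayed in the class. Mmp10, a matrix protease, stood at 16.6, 11.1 and 3.91 CPM, a ratio of 0.35 (0.31 to 0.40), though the second-batch 1x library held 15.1 CPM and its estimate is not whole. Sprr1a, an epithelial envelope protein, was at 4.82, 2.94 and 0.768 CPM (0.26, 0.19 to 0.35), and Flt1, a VEGF receptor, at 4.28, 2.38 and 0.807 CPM (0.34, 0.25 to 0.45). Slc14a1, a urea transporter, was at 7.62, 3.72 and 1.38 CPM, and Sybu, a kinesin linker, at 6.78, 2.85 and 1.02 CPM, with 2.03 and 0.970 CPM in the second-batch 1x library. Levels of these genes in 2x were under 1.5 CPM except for Mmp10. Gli1, the effector of hedgehog signalling, was at 4.39, 1.74 and 0.547 CPM (0.31, 0.22 to 0.45). The lowest ratio, 0.03, belonged to the pseudogene Rpl27-ps2, whose estimate is not whole and which had no count in the second-batch library, so it is uncertain, as is Gm7536 at 0.27.

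Muscle genes differed in how much of their 2x level was already present at 1x. For each gene whose 2x MyoD level differed from 1x GFP by over 1.5-fold beyond its counting interval, the share of that difference present at 1x MyoD was computed; a transcript proportional to the virus would give the 49.6% of Myod1 itself. Where 1x GFP is near 0 this share is the inverse of the dose ratio, so it adds most for genes with a baseline. Against 1x GFP, a library these comparisons share, 1251 genes (8.4%) were at least 1.5-fold higher and 1048 (7.04%) lower in 1x MyoD, and 1972 (13.2%) higher and 2321 (15.6%) lower in 2x MyoD. The median share was 25.8% for 21 filament genes, 34.4% for 23 Z-disc genes, 35.7% for 15 excitation-contraction genes, 55.4% for 13 regulators and 58.3% for 8 receptor and synapse genes. Over all 1589 genes higher in 2x than in 1x GFP it was 51.1%.

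The share is taken on linear CPM, where equal folds at each step give over 50% for a gene that is lower and under 50% for one that is higher, so higher and lower genes are not compared by it. For genes that were lower with MyoD, the median share was 61.5% for 26 matrix genes, 71.9% for 9 stress genes and 72.1% for 7 immediate early genes, beside 64.4% for all 1523 lower genes. Pdgfra had 71.4% (70.4 to 72.3) and Col1a1 61.0% (60.4 to 61.6). Among higher genes, Myh3 had 17.7% (16.9 to 18.4), Myog 35.4% (34.8 to 35.9), Rb1 47.6% (46.2 to 49.1) and Cdh15 66.1% (64.7 to 67.6). Tpm2, whose dose ratio matched Myod1, had 36% (35.1 to 36.9), from a level of 131 CPM in 1x GFP.

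**Figure D4:**
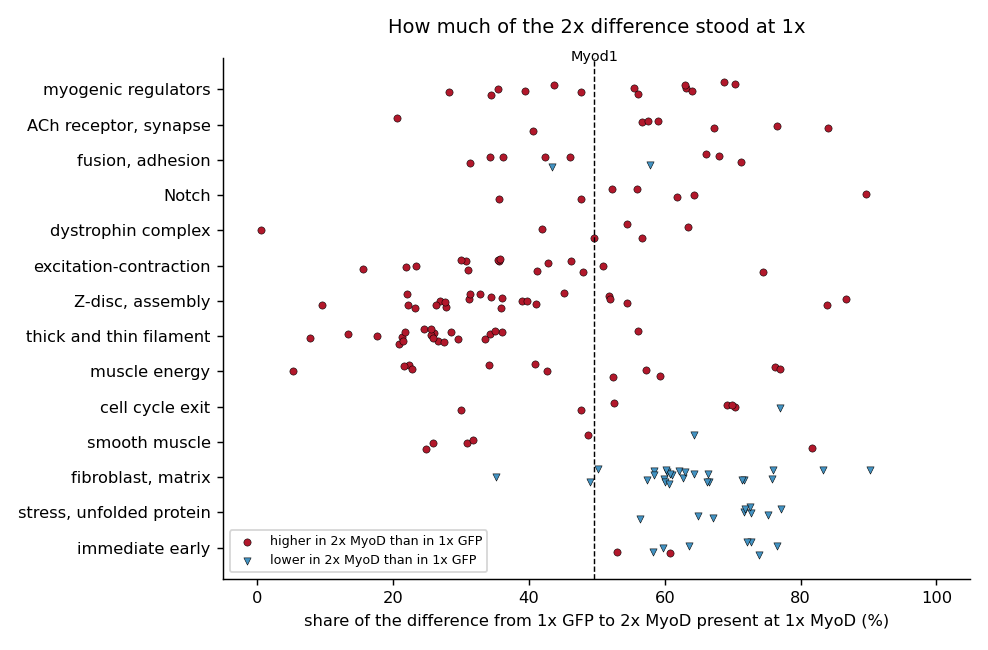
Share of the difference between 1x GFP and 2x MyoD that was present at 1x MyoD (%), 1 point per list gene that differed by over 1.5-fold; red circles are higher and blue triangles lower in 2x MyoD, and the dashed line is Myod1 at 49.6%. Filament genes, all higher, lie mostly left of the line; higher and lower genes are not comparable on this linear scale.

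Libraries of other viruses, none of them shared with 2x or 1x MyoD, show the same genes when another virus was raised. From 1x to 2x Myf5 virus, 450 genes (3.08% of 14606) were at least 1.5-fold higher and 358 (2.45%) lower. Over the 3 steps of GFP virus from an MOI of 15 to 120, 0.921%, 0.391% and 1.07% of 12927 to 13103 genes were higher and 0.41%, 0.376% and 0.641% lower. The MOI libraries held 17.9 to 22.4 M counts, against 68.3 and 68.5 M for Myf5 at 1x and 2x. Fewer counts widen the intervals and leave out more low genes, so the MOI shares and correlations are not directly comparable with those of Myf5. Across the 12573 genes with 200 counts in both pairs, the log2 dose ratios of MyoD and Myf5 had a Pearson r of 0.45 and a Spearman rho of 0.43, and those of MyoD and the 3 MOI steps a Pearson r of 0.00, 0.07 and 0.00 over 11028 to 11228 genes. These are descriptions across genes, which are not independent replicates. The filament list had a median log2 ratio of 0.86 in the Myf5 step over 22 genes, and -0.06, 0.02 and 0.12 in the MOI steps over 7 or 8 genes. Members under 50 counts in an MOI pair are left out there, such as Myh3 with no count in any MOI library. The Myf5 and MOI medians thus cover different genes and are not directly comparable.

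Sets of genes chosen by their levels in the Myf5 and MOI libraries were set beside these. The MyoD libraries entered the choice only through the minimum of 50 counts. At least 2-fold higher in both Myf5 libraries than in the pooled MOI series were 228 of the compared genes. Their median dose ratio with MyoD was 1.33, and 43 (18.9%, beside 1.32% of all genes) were above Myod1. At least 1.5-fold higher were 90 and lower were 6, beside 4.93% and 4.83% of all genes. Of the 217 with 50 counts in the 1x MyoD library alone, 43 (19.8%) were above Myod1. Of 134 genes chosen as lower in the same way, the median was 0.81, with 0 above Myod1, 5 higher and 38 lower.

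Interferon-stimulated genes, which cells raise against virus, had a median log2 ratio of -0.02 between the MyoD doses, beside -0.03 over all genes. Of 31 compared, 28 were within 1.5-fold, 1 was higher and 2 were lower, shares near the 4.93% higher and 4.83% lower over all genes. In the Myf5 step the median was 1.92 over 32 genes, and in the 3 MOI steps 0.61, 0.17 and 0.73; the difference between the viruses was not tested. Bst2, a tether of budding virus, stood at 28.6, 38.4 and 55.6 CPM in 1x GFP, 1x MyoD and 2x MyoD, a ratio of 1.45 (1.38 to 1.52), and at 216 CPM in the second-batch 1x library. Against that library the median of the list was -2.11, with 2x MyoD far below the second-batch 1x level. The part of the antiviral state in the muscle gene differences between the 1x libraries was not tested.

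**Figure D5:**
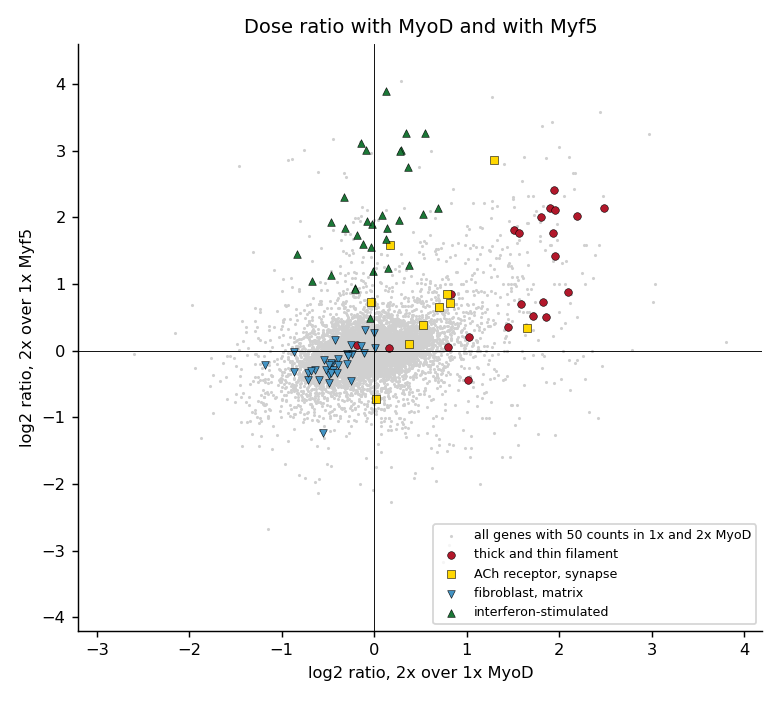
Log2 ratio of 2x over 1x Myf5 against log2 ratio of 2x over 1x MyoD, 1 library each; grey points are all genes compared and coloured points are 4 lists. Filament genes lie to the upper right, matrix genes to the lower left, and interferon-stimulated genes above 0 for Myf5 but around 0 for MyoD.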

How the data were processed

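Values came from 2 deposited gene tables of poly(A) RNA libraries. The submitters' processing notes name CASAVA 1.8.2, TopHat2 2.0.8 and build mm9, and the counting tool and annotation release are not given in the sources used here. Expected counts, as deposited by the authors in the first table, are not whole for 2673 to 2767 genes in the 3 libraries compared (tolerance 1e-06) and were rounded. The second deposited table holds whole-number counts and includes 37 mitochondrial genes, which were left out of its total wherever it was set beside the first. Of 37287 gene IDs, 32610 were paired with symbols through GENCODE vM21 names.

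CPM divides a count by the library total. Ratios carry exact conditional binomial (Clopper-Pearson) intervals at 95%, computed in Python 3.11.15 with scipy 1.17.1 and checked on simulated counts. Genes needed 50 counts in 1x and 2x MyoD together, and a called gene had to differ by 1.5-fold with an interval that excludes 1. Shares of a difference present at 1x carry delta-method counting intervals. Scaling factors of edgeR 4.0.16 (TMM) and DESeq2 1.42.0 were tried in R 4.3.3 as alternatives, as were other count and fold minimums, a 99% interval, the second-batch 1x library and subtraction of 1x GFP. No count model was tested, since each dose has 1 library.

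Named were Myod1, Myf5 and Myog, the 8 genes with the highest lower bound and the 8 with the lowest upper bound of the ratio (200 counts or more), the 4 closest to Myod1 (2000 counts or more), and 3 members of each of 18 lists. A few of these genes are left out here. Other genes were named after their values were seen. The genes, lists and comparisons were chosen with earlier results of these data known. The 25 lists include 7 of other lineages. Promoter windows are RefSeq's, on GRCm38.p6.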

Additional observations from a re-analysis of the deposited data

Results flagged for a closer look

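Cxcl10, a chemokine induced by interferon, went opposite ways with the 2 factors. It stood at 4.78 CPM in 1x GFP, 5.61 CPM with 1x MyoD and 3.14 CPM with 2x MyoD, a ratio of 0.56 (0.48 to 0.66), and at 14.3 and 39 CPM with Myf5 at 1x and 2x, a ratio of 2.73. The difference between the factors was not tested, since each dose has 1 library. The second-batch 1x MyoD library held 18.2 CPM, and the GFP series held 23.2, 30.5, 41.9 and 72.8 CPM at an MOI of 15, 30, 60 and 120.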

How the results depend on the processing

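TMM and DESeq2 scaling multiply every ratio by 1 number, Myod1's too, so the 196 genes above Myod1 stay above it by construction. They put the Myod1 ratio at 2.05 and 2.06 and the share of higher genes among all called at 56.2% and 57.9% instead of 50.5% (795 higher and 619 lower with TMM, 817 and 593 with DESeq2). Counts moved by over 1.5 times with the fold minimum, the count minimum, the 1x library and subtraction of 1x GFP. With a fold minimum of 2, 159 genes overlapped Myod1, 0 were higher by less and 147 were lower; with a lower minimum, 809 were higher by less and 1999 lower. With at least 200 counts, 137 overlapped and 421 were lower, and with 50 counts in 1x MyoD alone, chosen after seeing the data, 190 overlapped. With 1x GFP subtracted from both doses, 493 genes lay above Myod1, 1631 overlapped it and 316 were higher by less. Against the second-batch 1x library the Myod1 ratio was 1.82, 296 genes lay above it, 742 overlapped it and 1645 were lower. There the median log2 ratio turned for 5 of 18 lists: filaments (1.8 to -0.0453), replication and mitosis (-0.22 to 0.46), MyoD partners and inhibitors (0.17 to -0.12), cell cycle exit (0.09 to -0.01) and housekeeping (-0.004 to 0.18). Among named genes Top2a, within 1.5-fold, went from 0.72 to 1.32, and ratios of called genes turned for Mylk4 (0.92), Ckm (0.89), Gm7536 (47.3), Sybu (1.05), Tead4 (0.92), Cpeb3 (0.84), Snai1 (0.78), Myoz2 (0.81), Chrna1 (0.90), Dok7 (0.98), Casq2 (0.88), Dll1 (0.80), Cdkn1c (0.50), Rb1 (0.99) and Ckb (0.96); the cause was not tested. No replicate could be left out, with 1 library a dose. No paired analysis was possible because each dose has 1 library and the labels carry no replicate numbers. Genes under 50 counts were not compared, and intervals cover counting error only.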

Other observations

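Outside the lists, genes chosen after their values were seen included Nes, an intermediate filament of muscle and nerve progenitors, at 6.33 CPM in 1x GFP, 87.1 CPM with 1x MyoD and 254 CPM with 2x MyoD, a ratio of 2.92 (2.84 to 3.0). Erbb3, a receptor for neuregulins, was at 0.712, 12.2 and 38.5 CPM, a ratio of 3.16 (2.94 to 3.40). The second-batch 1x library stood above 2x for both, at 464 CPM for Nes and 91.4 CPM for Erbb3. Hdac11, a histone deacetylase, was at 12.3, 81.6 and 173 CPM, a ratio of 2.11 (2.05 to 2.18). Among secreted proteins of the fibroblast, Grem1, an antagonist of bone morphogenetic proteins, was lower at 885, 394 and 241 CPM, a ratio of 0.61 (0.60 to 0.62), though the second-batch 1x library held 78.0 CPM, below 2x, and the chemokine Ccl2 was at 869, 439.8 and 267 CPM, a ratio of 0.61 (0.60 to 0.62).

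Of 19 genes of amino acid stress and the unfolded protein response compared, Atf3, Atf5, Trib3 and Chac1 were at least 1.5-fold lower in 2x than in 1x MyoD (4.83% of all genes were) and none was higher. Atf5, a transcription factor of the amino acid response, was at 312, 175 and 100.6 CPM, a ratio of 0.57 (0.56 to 0.59), with 111 CPM in the second-batch 1x library. Trib3, a pseudokinase of the same response, was at 35.6, 14.5 and 8.25 CPM, a ratio of 0.57 (0.52 to 0.63), while the chaperone Hspa5 of the unfolded protein response was at 0.98 (0.96 to 0.99). Ier3, an early response gene, was at 30.7, 16 and 10.3 CPM, a ratio of 0.64 (0.59 to 0.70), and Ankrd1, a muscle stress protein, at 38.1, 65.7 and 90.2 CPM, a ratio of 1.37 (1.32 to 1.42). Of 12 smooth muscle genes written, 10 were compared. At least 1.5-fold higher were 4, beside 4.93% of all genes, none was lower, and 6 were within 1.5-fold, among them Cald1 at 0.78. Acta2, an actin shared with activated fibroblasts, was at 436, 594 and 1046 CPM, a ratio of 1.76 (1.74 to 1.78), with 481 CPM in the second-batch 1x library.

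The rule for naming genes also gave Gm14419, a predicted gene whose estimate is not whole, at a 2x over 1x MyoD ratio of 13.96 (0.309 CPM in the second-batch 1x library, against 0.695 CPM in the first and 9.7 CPM in 2x). Mylk4, a kinase of myosin light chains whose estimate is not whole, had a ratio of 5.04. Kremen2, a receptor of Wnt inhibitors, had 5.82, Ramp3, a partner of calcitonin-family receptors, 4.57, and Ccdc155 5.11. At the other end 9530077C05Rik had 0.35. Next to Myod1 were Tead4, a DNA-binding partner of YAP, at 2.00, the translation regulator Cpeb3 at 1.99 and the phosphatase Dusp13 at 1.99.

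With the Myf5 virus as the other factor, 21 genes were at least 1.5-fold higher in the MyoD step and lower in the Myf5 step, and 22 were lower with MyoD and higher with Myf5. Over all compared genes, 4.93% were higher and 4.83% lower in the MyoD step, and 3.08% higher and 2.45% lower in the Myf5 step. Whether more genes went opposite ways than unrelated calls at those shares would give was not tested. The second set includes the interferon-inducible GTPases Iigp1 (0.66 with MyoD, 6.39 with Myf5), Ifi47 (0.57 and 3.86) and Tgtp1 (0.36 and 6.85). The first includes Cnr1, a cannabinoid receptor (2.32 and 0.65), with 32.7 CPM in the second-batch 1x MyoD library, above 2x. These differences were not tested.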
